A study of Mus musculus with 8 samples.

Results

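Ccnd1, Rrm2 and Cdc20 are 3 cell cycle genes that were followed through the livers of Gpx3 transgenic and wildtype mice. Their probes were found by the NCBI Gene ID inside the probe name, 12443 for Ccnd1, 20135 for Rrm2 and 107995 for Cdc20. These 3 of 7409 named genes had 8 of the 24048 probes on the array, 3 for Ccnd1, 2 for Rrm2 and 3 for Cdc20. The genes were picked because earlier results on the same animals had shown higher mean signals in transgenic livers, so the difference between the groups is given below as a description without a test.

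The 8 animals were male and 23 weeks old, 4 labelled Gpx3 transgenic and 4 labelled B6/DBA wildtype, and both groups ate chow with 4% fat until 11 weeks of age and chow with 6% fat afterwards. Gpx3 encodes a secreted glutathione peroxidase, and the labels do not name the promoter of the transgene. Total RNA of the whole liver was hybridised to 1 Illumina bead array per animal, which gives a background-subtracted signal in intensity units for each probe. The titles of the 4 wildtype samples begin alike, as do those of transgenic animals 1 to 3, while the title of transgenic animal 4 begins differently, for a reason that is not stated. No such beginning occurs in both groups, so whatever it stands for cannot be told apart from the group.

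A cell commits to division when D-type cyclins, such as the cyclin D1 encoded by Ccnd1, activate CDK4 and CDK6, which phosphorylate the retinoblastoma protein and release E2F transcription factors. DNA replication then needs deoxynucleotides, which ribonucleotide reductase makes, and Rrm2 encodes the small subunit of that enzyme that rises in S phase. Cdc20 acts last: it activates the anaphase-promoting complex, a ubiquitin ligase that destroys securin and cyclin B so that sister chromatids separate. Most hepatocytes of an adult liver are quiescent, and cyclin D1 is known for its induction when the liver regenerates after loss of tissue.

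Rrm2 lies on chromosome 12 (24708254 to 24714146), Cdc20 on chromosome 4 (118432901 to 118437343) and Ccnd1 on chromosome 7 (144929931 to 144939831) of GRCm38.p6. RefSeq promoter sequence was at hand for Rrm2 and Cdc20, 2 of the 3 genes. The 250 bases before each start are shown because transcription of S phase and mitotic genes is known to run through short promoter motifs. The capitals mark each match of the NF-Y box CCAAT and of the cell cycle homology region TTTGAA, both searched on both strands. They run 5′ to 3′ on the gene's own strand, for Rrm2 chr12:24708004-24708253 on the plus strand and for Cdc20 chr4:118437344-118437593 on the minus strand.
Rrm2: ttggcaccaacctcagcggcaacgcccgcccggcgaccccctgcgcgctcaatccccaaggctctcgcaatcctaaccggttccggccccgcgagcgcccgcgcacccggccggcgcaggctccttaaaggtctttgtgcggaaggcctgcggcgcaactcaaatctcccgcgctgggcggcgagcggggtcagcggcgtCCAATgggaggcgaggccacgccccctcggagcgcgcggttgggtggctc
Cdc20: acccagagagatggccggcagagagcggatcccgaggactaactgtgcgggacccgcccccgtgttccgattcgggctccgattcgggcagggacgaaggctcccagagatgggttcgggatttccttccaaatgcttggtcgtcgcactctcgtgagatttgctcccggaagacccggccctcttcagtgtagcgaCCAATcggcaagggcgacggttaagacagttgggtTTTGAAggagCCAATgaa

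The Cdc20 window held TTTGAA at position -18 from the start and CCAAT at -53 and -8. The Rrm2 window held CCAAT at -50 and no TTTGAA. Both windows held the Sp1 letters GGGCGG, at -197 on the opposite strand in Cdc20 and at -225 (opposite strand) and -75 in Rrm2, and no match overlapped another. Neither held the E2F letters TTCCCGC or TTGGCGC. Of 32851 mouse promoter windows of the same length, 33.8% held CCAAT, 15.99% held TTTGAA, 5.55% held both, 32.7% held GGGCGG, 3.82% held TTCCCGC and 1.97% held TTGGCGC. These matches describe the letters and are no evidence of a bound factor. GC content was 72.4% in the Rrm2 window and 59.6% in the Cdc20 window.

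Arrays of the 2 groups were alike in their overall signal. Median signal per array lay between 11.0 and 13.5 units in transgenic and between 12.2 and 14.2 units in wildtype livers, and 33.1% to 35.3% of values per array were below 0. The lowest 1% of values on an array lay under -24.0 to -35.4 units, so a signal of that size above 0 is no larger than the background scatter. Signals under 16 units were set to 16 (4 on the log2 scale) before any log2 value was taken. Transgenic animal 2 stood apart at the α1-antitrypsin gene Serpina1e, with 409 units against 20414 to 33464 units in the other 7 animals, and values without this animal are given for each gene below. In limma 0 of 14759 tested probes reached an adjusted p under 0.05 (0%), and 1006 had an unadjusted p under 0.05 (6.82%).

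Ccnd1 was well above background in all 8 livers at its probe scl0012443.2_180-S. The 4 transgenic livers read 862, 909, 823 and 589 units and the 4 wildtype livers 596, 449, 718 and 563 units, in the order of the animals' numbers. Transgenic animals 1 to 3 lay above every wildtype animal, and transgenic animal 4 lay among the wildtype animals, so the groups overlapped. The means were 796 ± 142 and 582 ± 111 units (SD, n = 4 each). The log2 difference, transgenic minus wildtype, was 0.45 ± 0.18 (SE), a 1.37-fold higher signal in transgenic livers. In a whole-liver sample a larger number of cells with the transcript and more transcript per cell cannot be told apart.

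The other Ccnd1 probes gave a similar order of the livers, but this order includes the group difference for which the gene was chosen. Likeness of the probes within groups is tested further below, where no pair of Ccnd1 probes passed after adjustment in the main processing. Probe scl0012443.2_42-S read 178, 212, 149 and 99.1 units in transgenic and 61.0, 54.6, 128 and 106 units in wildtype livers. Transgenic animals 1 to 3 were again above all wildtype animals, and transgenic animal 4 lay below wildtype animals 3 and 4. The log2 difference was 0.91 ± 0.34 (SE), a 1.87-fold higher signal. Probe scl012443.1_0-S was dimmer, at 60.9, 78.0, 56.0 and 48.2 units in transgenic and 40.2, 39.2, 57.4 and 30.8 units in wildtype livers. Here wildtype animal 3 lay above transgenic animals 3 and 4, and the other wildtype animals lay below all transgenic animals. Its log2 difference was 0.55 ± 0.21 (SE), a 1.46-fold higher signal.

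**Figure D1:**
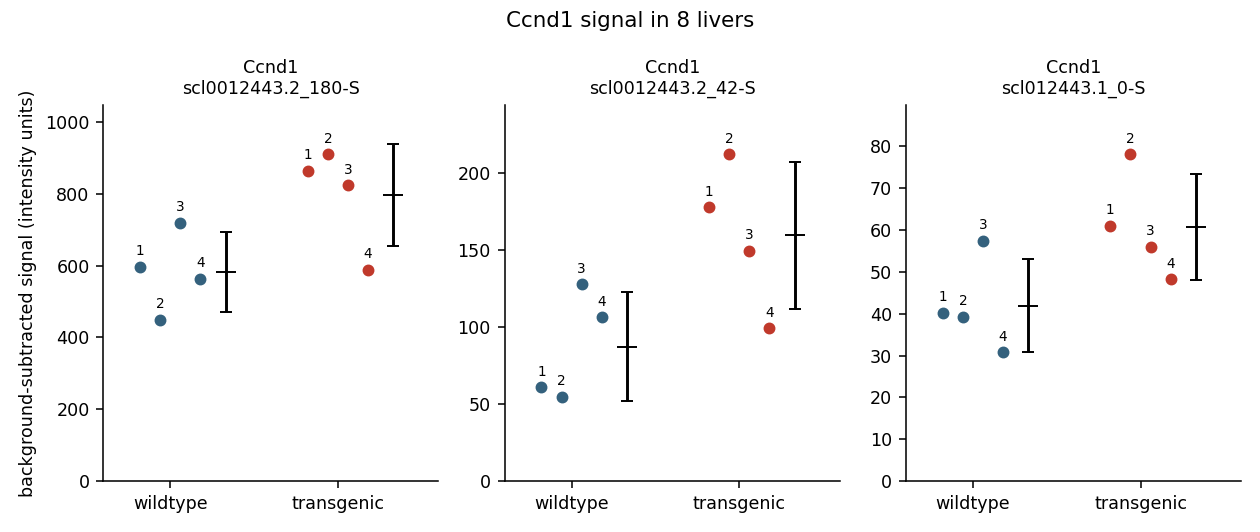
Background-subtracted signal of the 3 Ccnd1 probes in intensity units, one panel per probe with its own axis from 0. Points are livers with the animal's number, and the bar beside each group is the mean ± SD (n = 4); transgenic animal 4 is the lowest transgenic liver in every panel and wildtype animal 3 the highest wildtype liver.

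Rrm2 was dim at both of its probes. Probe scl0020135.2_120-S read 39.1, 51.6, 57.6 and 24.9 units in transgenic and 18.1, 25.8, 15.0 and 24.7 units in wildtype livers. Transgenic animals 1 to 3 lay above all wildtype animals, while transgenic animal 4 lay just under wildtype animal 2. The signal was larger than the background scatter of its array, as given above, in 3 of 4 transgenic livers and in 0 of 4 wildtype livers. The means were 43.3 ± 14.5 and 20.9 ± 5.20 units (SD, n = 4 each), and the log2 difference was 0.99 ± 0.29 (SE), with 1 wildtype array at the floor. Its size depended on the floor and was 0.46 with a floor of 32 units, so no fold is given. The second probe, scl0020135.1_26-S, lay between -8.20 and 7.80 units in transgenic and between -12.0 and 3.20 units in wildtype livers. It was under the floor on every array and was not tested, so it carries no information on the direction.

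Cdc20 was above the floor at 1 of its 3 probes in most livers. Probe scl00107995.1_8-S read 41.9, 22.0, 34.0 and 31.8 units in transgenic and 25.4, 13.6, 22.1 and 20.2 units in wildtype livers. Transgenic animals 1, 3 and 4 lay above all wildtype animals, and transgenic animal 2 lay below wildtype animals 1 and 3. The means were 32.4 ± 8.19 and 20.3 ± 4.97 units (SD, n = 4 each). This signal too was larger than the background scatter in 3 of 4 transgenic and 0 of 4 wildtype livers. The log2 difference was 0.61 ± 0.22 (SE), with 1 wildtype array at the floor, and 0.12 with a floor of 32 units, so no fold is given.

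The other Cdc20 probes were too dim to give a direction. Probe scl0107995.10_1-S read -0.60, 0.90, -7.70 and 0.80 units in transgenic and 27.0, 17.8, 6.40 and 0.90 units in wildtype livers. All 4 transgenic and 2 wildtype arrays were under the floor, so its log2 difference of -0.23 ± 0.17 (SE) comes from wildtype animals 1 and 2 alone. The signal was larger than the background scatter in 0 of 4 transgenic and 0 of 4 wildtype livers. Probe scl0107995.2_8-S was under the floor on all 8 arrays, at -12.3 to 5.30 units in transgenic and -0.200 to 6.10 units in wildtype livers, and was not tested. The 2 tested Cdc20 probes had log2 differences of opposite sign. The dimmer one lay within the background scatter in all livers, and the brighter one exceeded it in 0 of 4 wildtype livers. In wildtype animal 1 the dimmer probe read 27.0 units and the brighter one 25.4 units. Neither agreement nor disagreement between these probes can be read from such signals. Only 1 of the 3 Cdc20 probes had most of its values above the floor.

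**Figure D2:**
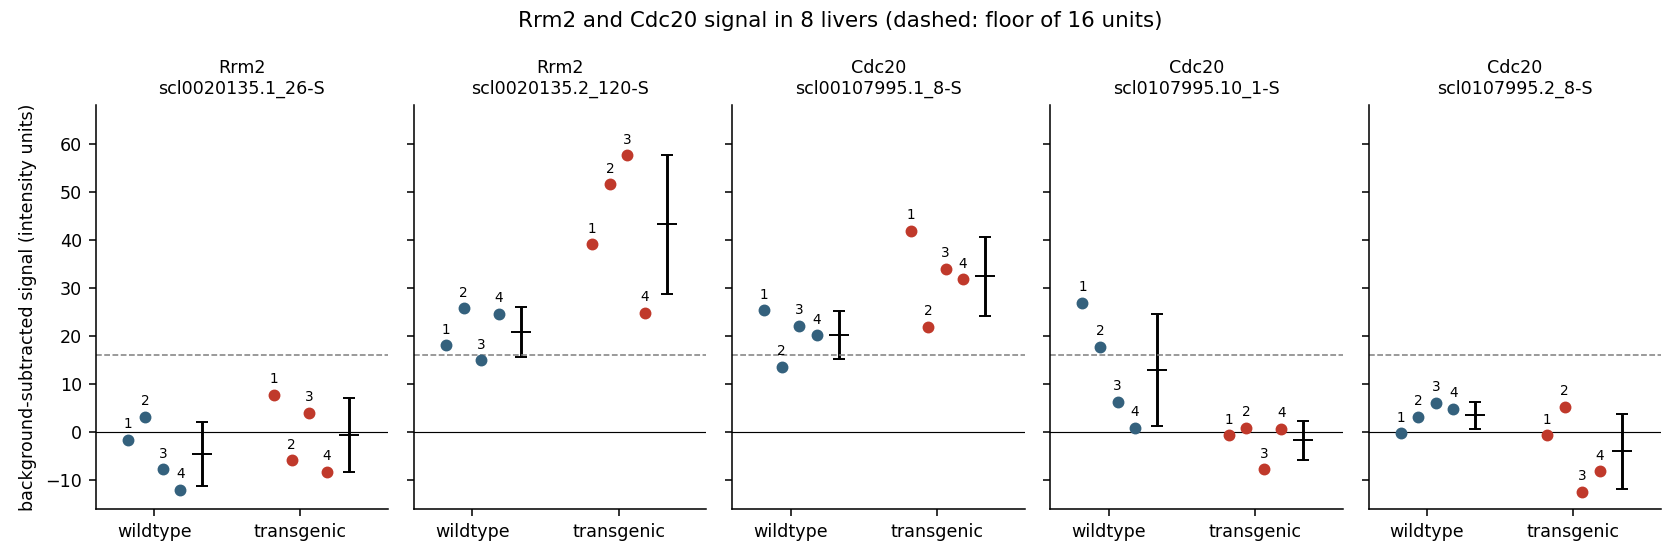
Background-subtracted signal of the 2 Rrm2 and 3 Cdc20 probes in intensity units on one linear axis, with 0 as a solid and the floor of 16 units as a dashed line. Points are livers with the animal's number and bars are means ± SD (n = 4); 1 probe of each gene lies above the floor in 7 of 8 livers, and the other 3 lie at or below it in most or all livers.

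Of the 8 probes 6 passed the filter on dim probes and entered the fit across all probes. None of these 6 had groups that did not overlap, which was the case for 3.56% of all tested probes. A log2 difference above 0 was found at 46.7% of all tested probes, and the median over them was -0.02. Since the genes were chosen for their higher means, nothing is read from the direction of their probes. The values just inside and outside the filter were those of the Cdc20 probe scl0107995.10_1-S, kept through 2 wildtype arrays, and of the 2 probes under the floor on all arrays.

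Single livers moved the size of these differences. Without transgenic animal 2 the log2 difference was 0.38, 0.75 and 0.42 at the Ccnd1 probes in the order above, 0.88 at Rrm2 and 0.79 at the brighter Cdc20 probe. Without transgenic animal 4, whose title begins differently, it was 0.59, 1.12 and 0.65 for Ccnd1, 1.24 for Rrm2 and 0.61 for Cdc20. Transgenic animal 4 was the lowest transgenic liver for Ccnd1 and Rrm2, while the lowest for Cdc20 was transgenic animal 2. A larger background offset shrank the dim probes: after normexp correction with an offset of 50 the log2 difference was 0.40, 0.51 and 0.20 at the Ccnd1 probes, 0.27 at Rrm2 and 0.16 at Cdc20.

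**Figure D3:**
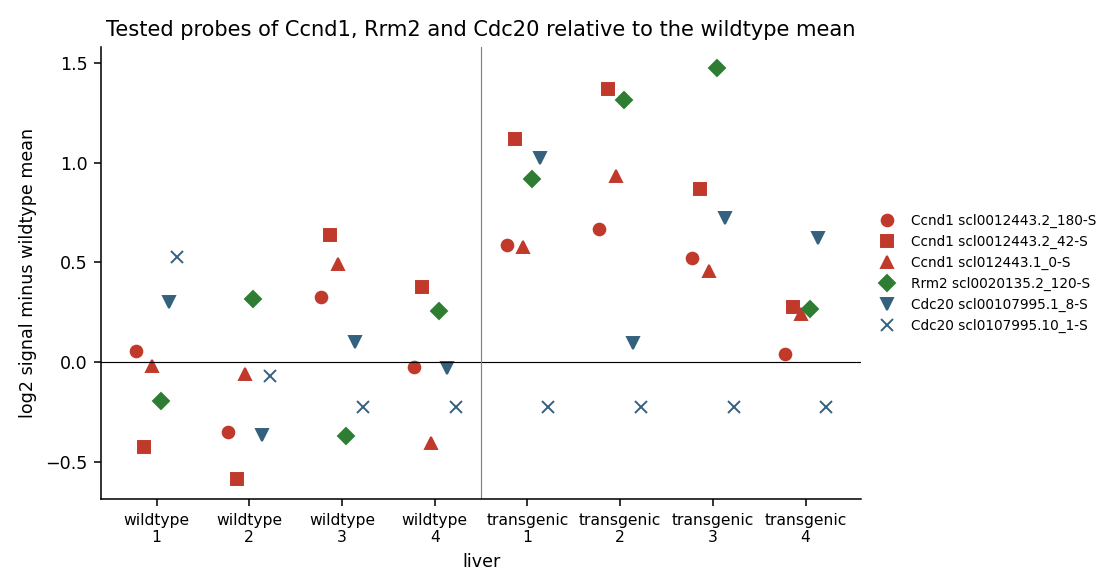
Log2 signal of the 6 tested probes in each liver minus the probe's wildtype mean, with one column of points per liver and one symbol per probe. Transgenic animals 1 to 3 have the highest points at Rrm2 and the first 2 Ccnd1 probes, wildtype animal 3 lies above transgenic animal 3 at the third Ccnd1 probe, transgenic animal 4 lies within 0.30 of the wildtype mean for both genes, and the Cdc20 probe scl0107995.10_1-S sits at its floor in 6 livers.

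Whether probes of a gene rank the livers alike was tested on the variation within groups, which the choice of genes did not use. Each group's mean log2 signal was subtracted, and animals were permuted within groups, with 576 arrangements and 15 pairs of probes. The first and second Ccnd1 probes had a Pearson r of 0.85 (exact two-sided permutation p = 0.0122, adjusted p = 0.182 over 15 pairs) and a Spearman rho of 0.86 (exact p = 0.0156, adjusted p = 0.156). The first and the third had an r of 0.71 (exact permutation p = 0.0747, adjusted p = 0.560) and a rho of 0.83 (exact p = 0.0208, adjusted p = 0.156). The second and the third had an r of 0.55 (exact permutation p = 0.220, adjusted p = 1) and a rho of 0.57 (exact p = 0.198, adjusted p = 0.938). None passed after adjustment, and the smallest unadjusted p this design can give is 0.00174. Without the 2 livers farthest from the median of the first probe in each pair, the values of r were 0.73, 0.77 and 0.74. With those 2 livers chosen by their within-group deviation instead, which left out transgenic animal 4 and wildtype animal 2, they were 0.59, 0.97 and 0.45. With single livers left out, r ranged from 0.77 to 0.95 for the first pair and from 0.55 (without wildtype animal 3) to 0.84 for the next. For the second and the third probe it was 0.27 without wildtype animal 3 and 0.96 without wildtype animal 4, so these livers moved it by more than 1.5 times. With the groups left in, r over the 8 livers was 0.92, 0.85 and 0.77, values that include the group difference.

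**Figure D4:**
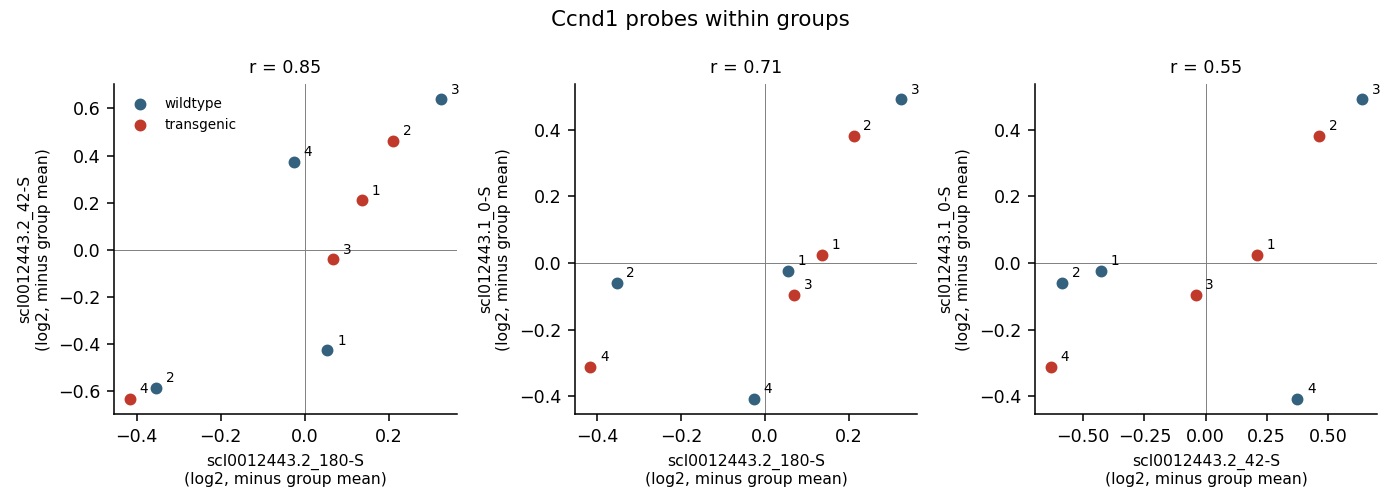
Within-group deviations of log2 signal for each pair of Ccnd1 probes, in log2 units with each group's mean set to 0, with wildtype livers in blue and transgenic livers in red, numbered by animal. Transgenic animal 4 lies low and wildtype animal 3 lies high at all 3 probes, and wildtype animal 4 lies high at the second probe, low at the third and near 0 at the first.

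Between the genes the within-group correlations lay between -0.50 and 0.23; no test compared them with those among the Ccnd1 probes. The Rrm2 probe had a within-group r of 0.19, 0.23 and 0.00237 with the 3 Ccnd1 probes (exact permutation p = 0.688, 0.604 and 0.995). The brighter Cdc20 probe had an r of 0.22, -0.03 and -0.19 with them (exact permutation p = 0.630, 0.958 and 0.648). Rrm2 and this Cdc20 probe had an r of -0.41 (exact permutation p = 0.396). Rrm2 and Cdc20 are both dim, and a correlation in such signals carries the background scatter. The 2 tested Cdc20 probes had an r of 0.33 (exact permutation p = 0.500), with no variation left in the transgenic group at the dimmer one. None of these 8 relations passed, each with an adjusted p of 1. The 4 pairs of the dimmer Cdc20 probe with Ccnd1 and Rrm2 had r between -0.50 and -0.03, with exact permutation p of 0.333 to 1 and adjusted p of 1. Spearman's rho of all these relations lay between -0.45 and 0.42 (exact permutation p 0.25 to 1, adjusted p 0.938 to 1). Without the 2 livers farthest from the median, their r ranged from -0.53 to 0.57, and 1 pair had no variation left. With those livers chosen by within-group deviation it ranged from -0.88 to 0.58.

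Genes with the most similar pattern over the 8 livers were named among 3570 probes above the floor on all arrays. For the first Ccnd1 probe they were Ehmt1, a histone H3 lysine methyltransferase, with a Pearson r of 0.98, Rassf4 with 0.95 and Ccdc85b with 0.93. Ehmt1 read 311, 302, 269 and 214 units in transgenic and 228, 181, 258 and 226 units in wildtype livers, with transgenic animals 1 to 3 and wildtype animal 3 highest and wildtype animal 2 lowest, as at Ccnd1. For Rrm2 they were Lzts3 (0.97), the casein kinase gene Csnk1e (0.97) and Dact2 (0.93). For Cdc20 they were the cytochrome P450 gene Cyp2c37 (0.95), Ttc17 (0.94) and Sdhb (0.94), a subunit of succinate dehydrogenase. None of the 9 is on the cell cycle lists used here. Only 22 genes of those lists had their brightest tested probe above the floor on all arrays, against 3570 candidate probes, so nothing is read from this. The best of 3570 correlations over 8 points is high in any case, and these values are a description.

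The differences of other cell cycle genes lay on both sides of 0, and none passed the test, as was so for all 14759 tested probes. Of 115 genes on 3 lists, 41 had a probe named by their Gene ID, as 8884 of the 24048 probes were. The other genes were not looked for under other probe names. Of the 41 genes 32 were tested, and 22 had their brightest tested probe above the floor on all arrays. At the remaining tested genes the log2 difference rests in part on values set to the floor. Of the 32 tested genes 13 had a higher and 19 a lower mean in transgenic livers. Their median log2 difference was -0.07 against -0.02 over all tested probes. None passed limma (adjusted p 0.735 to 0.974), none had an unadjusted p under 0.05, and the groups were apart at 1 of the 32 (3.56% over all probes). That gene was Anapc13, a subunit of the anaphase-promoting complex, named after its values were seen, at 2342 to 2439 units in transgenic and 2450 to 2726 units in wildtype livers. Its log2 difference was -0.11 ± 0.06 (SE).

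Among genes of G1 entry, around Ccnd1, 8 of 27 were tested, with 4 higher, 4 lower and a median log2 difference of 0.02. Ccnd3, another D-type cyclin, had a mean of 24.6 ± 7.76 units in the transgenic group and of 15.1 ± 13.7 units in the wildtype group (SD, n = 4 each), near the floor. Cdkn1a, which encodes the CDK inhibitor p21, averaged 32.3 ± 10.9 and 27.3 ± 5.24 units, and its second probe had a log2 difference of 0.23. Cdkn1b, which encodes the CDK inhibitor p27, averaged 10.6 ± 8.80 and 6.55 ± 7.71 units and was above the floor on 2 arrays. The partner genes Cdk4, Cdk6, Ccnd2, Rb1 and E2f1 were not analysed here.

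Among genes of nucleotide supply and replication, around Rrm2, 10 of 40 were tested, with 4 higher, 6 lower and a median log2 difference of -0.09. Tk1, the thymidine kinase of S phase, read 333 to 466 units in transgenic and 227 to 347 units in wildtype livers, a log2 difference of 0.37 ± 0.16 (SE; limma adjusted p = 0.735). Pcna, the sliding clamp of DNA polymerase, averaged 41.5 ± 14.3 against 31.1 ± 3.18 units (SD, n = 4 each), a log2 difference of 0.37 ± 0.21 (SE; limma adjusted p = 0.781). Its groups overlapped, at 33.5 to 62.8 units in transgenic and 29.1 to 35.8 units in wildtype livers. Rrm2b, the p53-inducible small subunit of ribonucleotide reductase, was above the floor on 1 array, and Tyms, thymidylate synthase, on none. The replication helicase gene Mcm7 had a log2 difference of -0.19 and the clamp loader gene Rfc3 of -0.55, named after their values were seen as genes on the lower side.

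Among genes of the anaphase-promoting complex, the spindle checkpoint and mitosis, around Cdc20, 14 of 48 were tested, with 5 higher, 9 lower and a median log2 difference of -0.09. Fzr1, the other activator of the complex, had a mean of 90.8 ± 7.31 units in the transgenic group and of 106 ± 12.2 units in the wildtype group (SD, n = 4 each), a log2 difference of -0.22 with an adjusted p of 0.754 in limma. Cdc23, a subunit of the complex, was above the floor on 1 array. Mki67, which encodes the proliferation marker Ki-67, had lower means in transgenic livers at both of its probes. The log2 differences were -0.57 ± 0.29 (SE) and -0.49, with an adjusted p of 0.776 in limma at the brighter one. Mki67 was dim too: its brighter probe read 18.6 to 50.9 units in transgenic and 41.1 to 52.9 units in wildtype livers. The lowest transgenic value lay within the background scatter, and values with other floors are not given for this gene. Ccnb1, which encodes cyclin B1, was under the floor on all 8 arrays, as were Ube2c, Cks1b, Nusap1 and Foxm1.

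**Figure D5:**
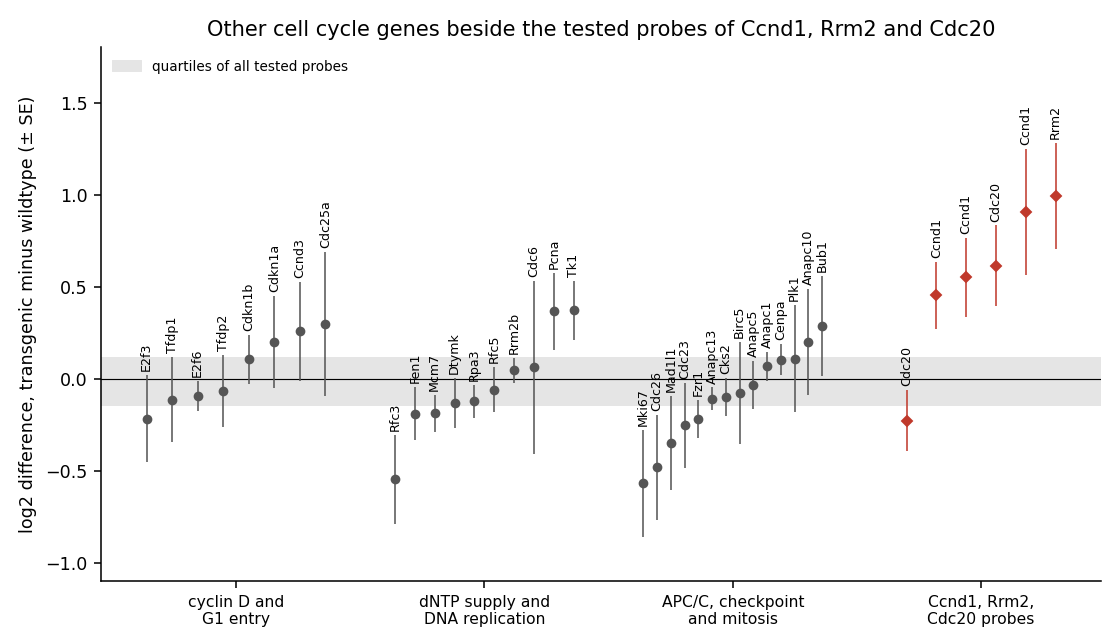
Log2 difference, transgenic minus wildtype, ± SE for the 32 tested genes of the 3 cell cycle lists (grey, brightest probe per gene) and for the 6 tested probes of Ccnd1, Rrm2 and Cdc20 (red), with the quartiles of all tested probes as a band. The grey points lie between -0.57 and 0.37, on both sides of 0, and 22 of these genes were above the floor on all arrays. The red points, whose genes were chosen for this difference, lie between -0.23 and 0.99.

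Markers of the cells a liver sample can hold were read from the same arrays, again only at probes named by a Gene ID. A summed level adds the brightest probe of each gene with signals below 0 counted as 0. The hepatocyte marker Apoa1, 1 of 8 on its list with a probe, read 33749 to 37065 units in transgenic and 33982 to 36689 units in wildtype livers. Erythroid markers, 2 of 8 with a probe, had lower summed levels in transgenic livers, at 9105 to 10339 against 10864 to 23811 units. The α-globin gene Hba-a1 gave most of that sum, and neither Hba-a1 (adjusted p = 0.592) nor Hbb-b1 (adjusted p = 0.671) passed limma. Endothelial markers, 4 of 8 measured and all 4 with lower means, summed to 3517 to 4294 against 3746 to 4501 units, ranges that overlapped. Clec4g gave most of that sum, so the overlap says little of the other 3 genes. The log2 differences were -0.06 ± 0.09 (SE) at Clec4g, -1.04 ± 0.57 at Pecam1, -0.48 ± 0.18 at Emcn and -0.31 ± 0.15 at Egfl7. At each of these 4 genes the groups overlapped, and none passed limma (adjusted p 0.697 to 0.858). Summed levels overlapped between the groups for the stellate cell (7197 to 8040 against 7513 to 8041 units, most of it from Dcn), macrophage (542 to 955 against 561 to 962 units), neutrophil (24.9 to 74.4 against 26.1 to 69.8 units) and cholangiocyte (168 to 255 against 179 to 247 units) lists. Within the stellate list the groups were apart at Lrat, the retinol acyltransferase of stellate cells, named after its values were seen, at 228 to 323 units in transgenic and 363 to 395 units in wildtype livers. Its log2 difference was -0.46 ± 0.13 (SE; limma adjusted p = 0.592), and the other 3 tested stellate genes overlapped. Of the lymphocyte list 2 of 8 genes had a probe: Ptprc, the pan-leukocyte marker CD45, was under the floor on all 8 arrays, and the summed level was 6.00 to 26.4 against 3.90 to 16.2 units. The part of these cells in the values of Ccnd1, Rrm2 and Cdc20 was not tested.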

How the data were processed

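The authors deposited an intensity per probe for each of the 8 arrays, on a linear scale and already background-subtracted, as its values below 0 show. BeadStudio 1.5.1.3 was used, per the submitters' processing notes; any scaling between arrays: not given in the sources used here. The 64 value columns of a second deposited table, not normalized per the file headers, are named by chip position, which no label gives, and were not used. All of them come from 1 chip.

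Intensities under 16 were set to 16 and log2 was taken, with no further normalization. Probes with a mean log2 signal above the lower quartile were kept (14759 of 24048). That quartile lay at the floor, so a probe above 16 on at least 1 array was kept. Among the 8890 probes above the floor on all arrays, 458 had groups that did not overlap. Numbers in probe names were read as NCBI Gene IDs: 7409 of 7991 (92.7%) were in the RefSeq table of GRCm38.p6, against 45.8% to 48.9% after shifting by 1 to 3. This named 8884 probes. Groups come from the labelled strain. Animals are numbered in order of deposition, which pairs none. Apart from the titles, whose beginnings differ between the groups, nothing says more of their origin. The p-values measure the spread between these animals and cannot separate the group from what the beginnings of the titles stand for.

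The comparison of the groups used lmFit and eBayes of limma 3.58.1 (R 4.3.3) with two-sided p-values, Benjamini-Hochberg adjustment over every tested probe and a threshold of 0.05, and was tested on simulated data. Correlations used exact permutation within groups. A gene of a list was represented by its brightest tested probe. All probes of the 3 genes were named, with direct partners of each gene, and the 3 genes of highest correlation. The genes and lists were chosen with earlier results of these data known. Alternatives were other floors, normalizations, filters and variance models, normexp with an offset of 50, linear values, and leaving out each array. The number of arrays limits the precision.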

Additional observations from a re-analysis of the deposited data

How the results depend on the processing

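The log2 differences of Ccnd1, Rrm2 and Cdc20 kept their sign at all 6 tested probes under every alternative run, except that the dimmer Cdc20 probe has no value with a floor of 32 or as a ratio of linear means. Every alternative used the same animals on which the genes were chosen for higher means, so a kept sign is no support for the direction. With normexp and an offset of 50 the third Ccnd1 probe came to 0.20, Rrm2 to 0.27 and the brighter Cdc20 probe to 0.16. With a floor of 32 Rrm2 came to 0.46 and Cdc20 to 0.12. With a floor of 8 the dimmer Cdc20 probe came to -0.73. With single arrays left out, the ranges were 0.34 to 0.59, 0.71 to 1.12 and 0.41 to 0.71 for the Ccnd1 probes, 0.83 to 1.24 for Rrm2, 0.48 to 0.79 for the brighter and -0.30 to -0.05 for the dimmer Cdc20 probe. Probes with an adjusted p under 0.05 in limma numbered 0 as reported, 1 after quantile normalization or aligned array medians, 3 with normexp, 2 with a trended robust variance, and 0 to 7 with single arrays left out, the 7 without transgenic animal 4. No gene of the 3 cell cycle lists passed under any of these. The G1 median came to -0.081 with probes above the floor on all arrays and to -0.0385 to 0.14 with single arrays left out. The mitosis median came to -0.034 with a floor of 32, to -0.16 with probes above the floor on all arrays and to -0.12 to -0.059 with single arrays left out.

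The within-group r of the first and second Ccnd1 probes passed with array medians aligned (0.92, exact permutation, adjusted p = 0.0260; 0.0260 to 0.833 over all alternatives). Between genes r changed sign often. Ccnd1 with the brighter Cdc20 probe came to 0.0878 (floor of 8), 0.185 (floor of 32), 0.251 (quantile) and 0.186 (aligned medians) at the second Ccnd1 probe, and to 0.00591 (floor of 32) at the third one. Ccnd1 with the dimmer Cdc20 probe came to 0.103 (aligned medians) at the first probe, and to 0.0496 (aligned medians), 0.0160 (normexp) and 0.0598 (linear values) at the third one. Rrm2 came to -0.0470 with the third Ccnd1 probe (floor of 8), 0.0598 with the brighter Cdc20 probe (normexp) and 0.0518 with the dimmer one (floor of 8). With single arrays left out, Rrm2 had r of -0.739 to 0.521, -0.365 to 0.585 and -0.578 to 0.415 with the Ccnd1 probes and -0.371 to 0.285 with the dimmer Cdc20 probe. The brighter Cdc20 probe had -0.116 to 0.751, -0.392 to 0.432 and -0.398 to 0.360 with the Ccnd1 probes and -0.436 to 0.481 with the other Cdc20 probe. The dimmer one had -0.598 to 0.261 and -0.400 to 0.368 with the first and the third Ccnd1 probes. The cause of these changes was not tested. No paired analysis was made because the labels pair no animals.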
